A study of Danio rerio with 3 samples.

Results

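The genes of mitosis and cell division were followed in liver RNA of larval zebrafish of the AB strain. The set is a list of 42 genes, from entry into mitosis to the final cut between daughter cells. They were found on the array through the RefSeq accessions of its probes, and where several probes carried 1 gene, the brightest over the 3 arrays was used. Of the 42 genes, 34 had a named probe among the 27295 genes measured. The 8 without one were wee1, tpx2, cenpe, cenpf, bub1, espl1, top2a and incenp, and nothing is reported for them.

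Livers were taken from larvae at 15 dpf (days post-fertilization), and their RNA was hybridised to Agilent arrays read in a single colour. There were 3 groups of 1 array each. All larvae were unfed until 5 dpf and then kept on their diet for 10 days. The control group received AP100, a larval dry feed, at 30 mg for 100 fish a day. The HCD (high-cholesterol diet) group received 180 mg of AP100 for 100 fish a day with 4% cholesterol, so that it differed from the control in both the amount of feed and its cholesterol. The BBR group received the same HCD together with berberine, a plant alkaloid, at 5 μM. How many larvae gave the RNA of an array is not given in the sources used here.

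With 1 array per group, there was no replicate and no test across samples. Each value below is therefore a comparison of single arrays, and its error covers only the reading of the spots. Control and BBR shared a slide and the HCD array was on another. A difference of the HCD array from the control or from the BBR array thus cannot be told apart from one between slides. Both comparisons that involve HCD also use the same HCD array. Between 88.5% and 92.3% of the spots of an array were well above background. Other quality measures were less alike. The scanner flagged 1510 spots as outliers for control, 1665 for HCD and 20 for BBR. Repeated spots of 1 probe had an SD of 0.18, 0.18 and 0.09 on the log2 scale, in that order. Hepatocyte markers were bright on all 3 arrays, with a summed signal of 11720% to 13370% of the 75th percentile over 10 genes. Markers of exocrine pancreas (7 genes, 22120% to 26310%), skeletal muscle (7 genes, 17710% to 19890%) and intestine (7 genes, 8031% to 8764%) were bright as well. The samples labelled as liver thus also carried transcripts of neighbouring tissues. In such a mixture, fewer dividing cells and less mitotic RNA per dividing cell cannot be told apart.

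A cell enters mitosis when the kinase Cdk1, bound to a cyclin, passes a threshold of activity, and it leaves when the anaphase promoting complex marks the cyclins and securin for destruction. In between, chromosomes are compacted by condensin, captured by spindle microtubules at their kinetochores, and held back by the spindle checkpoint until every one is attached. Most of these genes are transcribed together, late in the cell cycle, so that their RNA is a widely used sign of dividing cells. The liver of a larval fish is still growing by division, whereas hepatocytes of an adult liver divide rarely.

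Compared with the control group, the HCD group had higher signals of the whole set, most of them by more than 2-fold. Of the 34 genes, 28 were at least 2-fold higher on the HCD array, or 82.4%, and 0 were at least 2-fold lower. Over all 24563 genes compared, 3.69% were at least 2-fold higher and 4.08% at least 2-fold lower. The median gene of the set was 2.54-fold higher (1.34 on the log2 scale), whereas the median of all genes compared was −0.16. The log2 difference of each of the 34 genes was above 0, from 0.21 for dlgap5 to 1.87 for ccna2.

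Compared with the HCD group, the BBR group had lower signals of every gene measured. On the BBR array, 16 of the 34 genes were at least 2-fold lower, or 47.1%, and 0 were at least 2-fold higher. Over the 25040 genes compared, 1.32% were at least 2-fold lower and 4.53% at least 2-fold higher. The median gene of the set was 1.98-fold lower (−0.98 on the log2 scale, against 0.10 for all genes). The log2 difference of each of the 34 genes was below 0, from −0.24 for bub3 to −1.48 for ccna2.

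Between the BBR and control arrays, which share a slide, 0 of the 33 genes compared were 2-fold apart in either direction. Over the 25086 genes compared, 3.81% were at least 2-fold higher with BBR and 1.28% at least 2-fold lower. The median of the set was 1.31-fold higher with BBR than in the control (0.39 on the log2 scale, against −0.03 for all genes). In 30 genes the BBR array lay above the control, and in 3 (dlgap5, ncapg and ect2) below it.

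Of the 34 genes, 33 were well above background on all 3 arrays. The exception was racgap1, which passed on the HCD array alone. Without it, 27 of 33 genes were at least 2-fold higher in HCD than in the control, against 3.6% of the 23452 genes that passed on every array. Likewise 15 of the 33 were at least 2-fold lower with BBR than in HCD, against 1.19% of those genes. The HCD array held the highest signal in each of the 33, and over all 23452 genes it did so in 26.5%. The control array was lowest in 30 of them (26.7% of all genes) and the BBR array in 3 (26.9%).

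**Figure D1:**
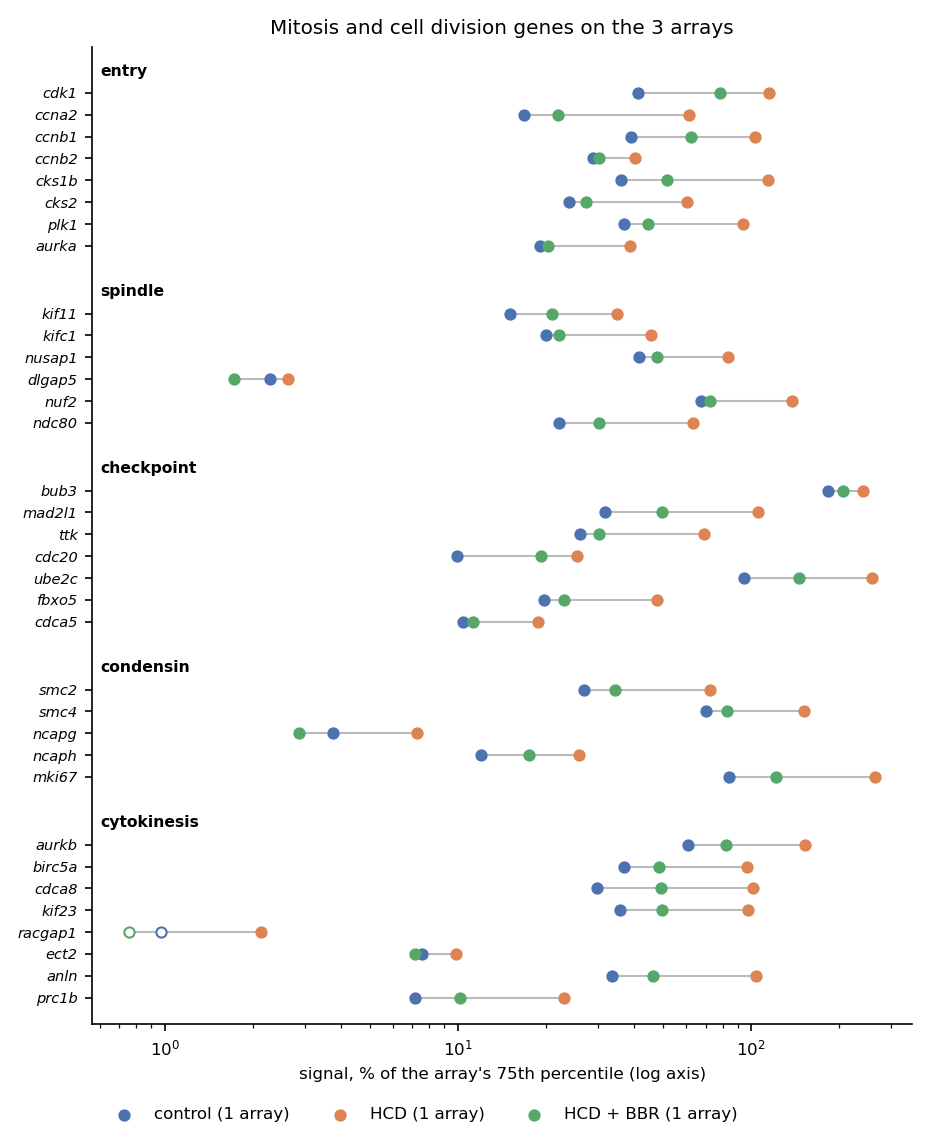
Signal of the 34 measured mitosis and cell division genes on the control, HCD and HCD + BBR arrays (1 array each), in percent of the 75th percentile of the array on a log axis, grouped by stage. Filled circles are probes well above background and open circles are not, and the line joins the lowest and highest array. The orange HCD point lies farthest right in each of the 34 rows, and the green BBR point lies between the others in 30 of the 33 genes that passed on every array.

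Signals are given as a percent of the 75th percentile of the array, which scales for the brightness of the array as a whole. A probe's brightness also depends on its own sequence, which this scaling leaves as it is. Signals can therefore be compared between arrays for 1 gene but not between genes. The scanner error of a log2 difference had a median of 0.20 over the set in each of the 3 comparisons and a highest value of 0.42, 0.40 and 0.51. The lowest value was 0.204 in each, so the error was nearly the same for most genes. Counting genes by this error thus comes close to a fixed cut in size. In the HCD and control comparison, 31 of 34 genes were beyond 0 by more than 2 such errors. In the BBR and HCD comparison, 32 of 34 were. Shares over all genes were not computed at this cut, so these counts cannot be set against them. Differences between 2 arrays over genes with several probes carried a larger spread, with an SD between probes of 1 gene of 0.31, 0.33 and 0.29 for the 3 comparisons. This spread is technical too and says nothing of how livers of the same group vary.

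Of the 9 genes listed for entry into mitosis, 8 were measured, and 7 of them were at least 2-fold higher in HCD than in the control. Over all genes compared the share was 3.69%, which stands beside the count of each stage below. The signal of cdk1, the kinase that drives entry, was 41.2% in the control, 115% in HCD and 78.5% with BBR. It was 2.80-fold higher in HCD than in the control and 1.47-fold lower with BBR than in HCD, and the BBR array was 1.91-fold above the control. Cyclin A2 and the B-type cyclins are the partners that switch Cdk1 on.

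For ccna2 the signal was 16.8% in the control, 61.3% in HCD and 22.0% with BBR, which gave the largest differences of the set in both HCD comparisons (3.66-fold higher and 2.79-fold lower). For ccnb1 it was 39.0%, 103% and 62.6%, a difference of 2.64-fold and then 1.65-fold. The other B-type cyclin moved little, since ccnb2 was at 29.0%, 40.3% and 30.3% on the control, HCD and BBR arrays. At 1.39-fold higher in HCD it was the 1 measured entry gene under the 2-fold line.

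The small Cdk-binding proteins Cks1b and Cks2 dock the kinase on its substrates. The signal of cks1b was 35.9% in the control, 115% in HCD and 51.6% with BBR (3.19-fold higher, then 2.22-fold lower). For cks2 it was 24.02%, 60.4% and 27.4% (2.52-fold and 2.21-fold). In both genes the BBR array was within 1.44-fold of the control array.

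The 2 mitotic kinases of this stage differed in size. For plk1, which activates Cdk1 and matures the centrosomes, the signal was 36.8% in the control, 94.2% in HCD and 44.7% with BBR. It was 2.56-fold higher in HCD and 2.11-fold lower with BBR. For aurka, the kinase of centrosomes and spindle poles, it was 19.1%, 38.8% and 20.3%, a 2.03-fold difference that lay on the 2-fold line within its error. Further probes of aurka gave log2 differences of 0.24 and 0.32 between HCD and control, and −0.25 and −0.31 between BBR and HCD. Over the 8 entry genes the median log2 difference was 1.38 between HCD and control, −1.004 between BBR and HCD, and 0.34 between BBR and control.

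Of the 9 spindle genes listed, 6 were measured and 5 were at least 2-fold higher in HCD. Ndc80 and Nuf2 are subunits of the kinetochore complex that grips the ends of microtubules. The signal of ndc80 was 22.2% in the control, 63.5% in HCD and 30.2% with BBR (2.87-fold higher, then 2.10-fold lower). For nuf2 it was 67.6%, 138% and 72.3% (2.05-fold and 1.91-fold). In both, the BBR array stood close to the control array, 1.37-fold and 1.07-fold above it.

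The 2 motor proteins measured differed by nearly the same factor between HCD and control. For kif11, the kinesin that pushes the spindle poles apart, the signal was 15.1% in the control, 34.9% in HCD and 20.9% with BBR. For kifc1, a kinesin that moves towards the minus end and focuses the poles, it was 20.01%, 45.7% and 22.1%. They were 2.31-fold and 2.29-fold higher in HCD than in the control, and 1.67-fold and 2.07-fold lower with BBR than in HCD.

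The microtubule-binding proteins of the spindle were divided. For nusap1, which bundles spindle microtubules, the signal was 41.4% in the control, 83.8% in HCD and 47.6% with BBR, so that it was 2.03-fold higher in HCD and 1.76-fold lower with BBR. In dlgap5, which stabilises the microtubules that reach kinetochores, it was 2.29%, 2.64% and 1.72%. The 1.15-fold difference between HCD and control was within the scanner error of 0.28 for this gene, and the control array was above the BBR array. The spindle genes had a median log2 difference of 1.11 between HCD and control, −0.88 between BBR and HCD, and 0.17 between BBR and control.

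Of the 9 genes listed for the checkpoint and the exit from metaphase, 7 were measured and 5 were at least 2-fold higher in HCD. Mad2l1, Bub3 and the kinase Ttk (Mps1) hold cells in metaphase while any kinetochore is free. The signal of mad2l1 was 31.8% in the control, 106% in HCD and 49.6% with BBR (3.32-fold higher, then 2.13-fold lower). For ttk it was 26.2%, 69.2% and 30.3% (2.64-fold and 2.28-fold). By contrast bub3 was at 183%, 242% and 205%, a difference of 1.32-fold and then 1.18-fold, the smallest of the set between BBR and HCD.

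The anaphase promoting complex needs the activator Cdc20 and the ubiquitin-conjugating enzyme Ube2c, and is restrained by Fbxo5 (Emi1). For cdc20 the signal was 9.92% in the control, 25.4% in HCD and 19.2% with BBR. It was 2.56-fold higher in HCD but only 1.32-fold lower with BBR, and at 1.94-fold above the control on the BBR array it was the highest of the set in that comparison. For ube2c it was 94.9%, 259% and 146% (2.73-fold, then 1.78-fold). For fbxo5 it was 19.6%, 47.8% and 22.98% (2.44-fold, then 2.08-fold).

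The remaining gene of this stage, cdca5, encodes sororin, which keeps sister chromatids joined until anaphase. Its signal was 10.4% in the control, 18.8% in HCD and 11.2% with BBR, and its 1.81-fold difference between HCD and control stood within 1 scanner error of the 2-fold line. The 7 genes of the stage had a median log2 difference of 1.36 between HCD and control, −0.83 between BBR and HCD, and 0.23 between BBR and control.

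Of the 6 genes listed for chromosome structure, 5 were measured and 4 were at least 2-fold higher in HCD. Smc2 and Smc4 form the arms of condensin, the ring that compacts chromosomes, and Ncapg and Ncaph belong to condensin I. The signal of smc2 was 27.0% in the control, 72.4% in HCD and 34.4% with BBR (2.68-fold higher, then 2.10-fold lower). For smc4 it was 70.2%, 152% and 82.9% (2.16-fold, then 1.83-fold). On the probes used, the core pair therefore stood in the same order over the 3 arrays, which not every further probe of smc2 did.

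The condensin I subunits were read with a smaller margin. For ncaph, the subunit that closes the ring, the signal was 11.99% in the control, 25.97% in HCD and 17.5% with BBR. For ncapg it was 3.75%, 7.25% and 2.87%, 1.94-fold higher in HCD than in the control and 2.52-fold lower with BBR than in HCD. The BBR array was thus below the control in ncapg and above it in ncaph, but the further probe of ncapg gave a log2 difference of 0.39 between BBR and control, on the same side as ncaph.

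The gene mki67 encodes Ki-67, which coats mitotic chromosomes and is the common marker of dividing cells in tissue sections. Its signal was 84.3% in the control, 264% in HCD and 122% with BBR, which is 3.14-fold higher in HCD and 2.17-fold lower with BBR. The chromosome structure genes had a median log2 difference of 1.11 between HCD and control, −1.07 between BBR and HCD, and 0.35 between BBR and control.

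Of the 9 genes listed for cytokinesis, 8 were measured and 7 were at least 2-fold higher in HCD, racgap1 among them by a lower bound only. The chromosomal passenger complex, which corrects wrong attachments and then moves to the midzone of the spindle, was represented by the kinase aurkb and by birc5a (survivin) and cdca8 (borealin). The signal of aurkb was 60.9% in the control, 152.5% in HCD and 81.9% with BBR. For birc5a it was 36.9%, 96.8% and 48.7%. For cdca8 it was 29.8%, 101.5% and 49.3%, the largest of the 3 differences at 3.41-fold higher in HCD, beside 2.50-fold for aurkb and 2.63-fold for birc5a.

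The midzone itself is built by Prc1, which crosslinks antiparallel microtubules, and by centralspindlin, a complex of Kif23 and Racgap1. For prc1b the signal was 7.17% in the control, 23.1% in HCD and 10.2% with BBR (3.22-fold higher, then 2.27-fold lower). For kif23 it was 35.8%, 97.7% and 49.6% (2.73-fold, then 1.97-fold). For racgap1 the signal was 0.973%, 2.13% and 0.758% and was well above background on the HCD array alone. With the other arrays at the floor, it was 2-fold higher there than in the control and 2.59-fold higher than with BBR, both as bounds. The scanner error of these log2 differences was 0.42 and 0.40. Alternative processing gave a value as low as 0.36 between HCD and control, so the 2-fold call is not secure.

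Anillin and Ect2 act at the cleavage furrow, where Ect2 switches on RhoA and anillin ties the contractile ring to the membrane. For anln the signal was 33.5% in the control, 104% in HCD and 46.3% with BBR (3.11-fold higher, then 2.25-fold lower). For ect2 it was 7.54%, 9.88% and 7.12% (1.31-fold, then 1.39-fold). Only anln of this pair passed the 2-fold line in either comparison. The cytokinesis genes had a median log2 difference of 1.42 between HCD and control, −1.02 between BBR and HCD, and 0.46 between BBR and control. In both HCD comparisons the median includes racgap1 as a bound.

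**Figure D2:**
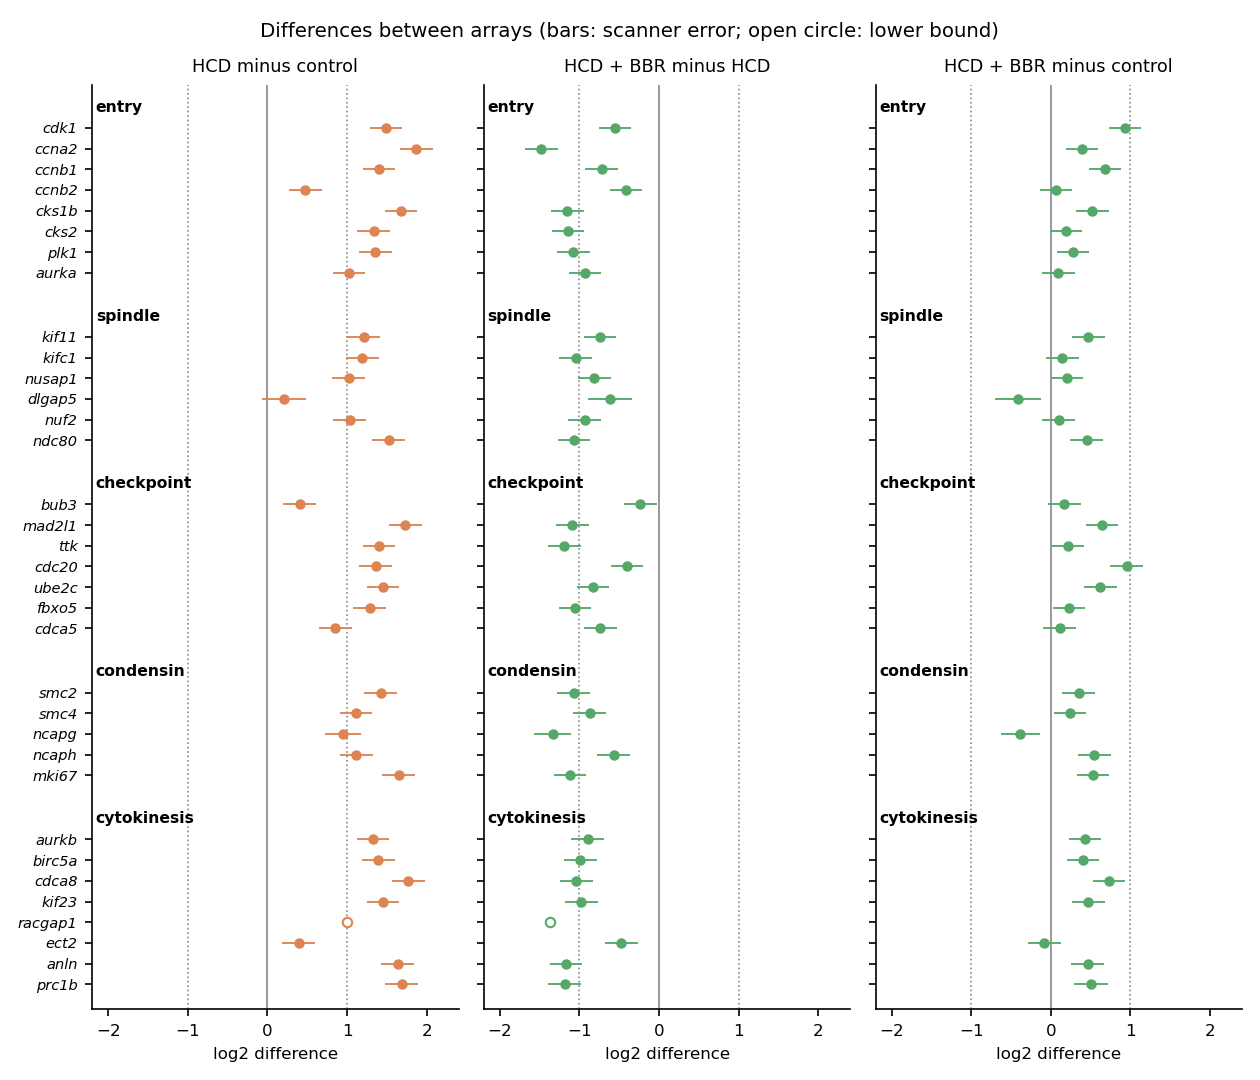
Log2 differences of the measured genes between HCD and control, BBR and HCD, and BBR and control (left to right), grouped by stage. Bars are the scanner error of the 2 spots, open circles are lower bounds, dotted lines mark 2-fold, and racgap1 is left out on the right. In the left panel 28 of 34 genes lie at or beyond the line, in the middle 16 of 34, and on the right 0 of 33.

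Many of these calls sit near the 2-fold line. Of the 28 genes called higher in HCD than in the control, 7 were within 1 scanner error of it (aurka, kifc1, nusap1, nuf2, smc4, ncaph and racgap1). Just outside it were cdca5 and ncapg. In the BBR and HCD comparison, 14 of the 16 called genes were within 1 error of the line and so were 8 of those not called. All 34 genes were beyond 0 by more than 1 error there, a count for which the share over all genes was not computed either. In the BBR and control comparison, cdk1 (1.91-fold) and cdc20 (1.94-fold) were the nearest to 2-fold.

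The size of the difference between BBR and HCD varied among the genes called in HCD. In cdk1, cdc20 and ncaph the BBR array was 1.47-fold, 1.32-fold and 1.48-fold below the HCD array. In ccna2, ttk and prc1b it was 2.79-fold, 2.28-fold and 2.27-fold below. This contrast depends on the probe, since further probes gave log2 differences of −0.05 for ccna2 and −0.22 for prc1b, and 0.24 for cdc20 and 0.21 for ncaph. The median gene of each of the 5 stages was higher in HCD than in the control by 1.11 to 1.42 on the log2 scale and lower with BBR than in HCD by 0.83 to 1.07. Within entry alone, single genes ran from 0.48 to 1.87 between HCD and control.

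**Figure D3:**
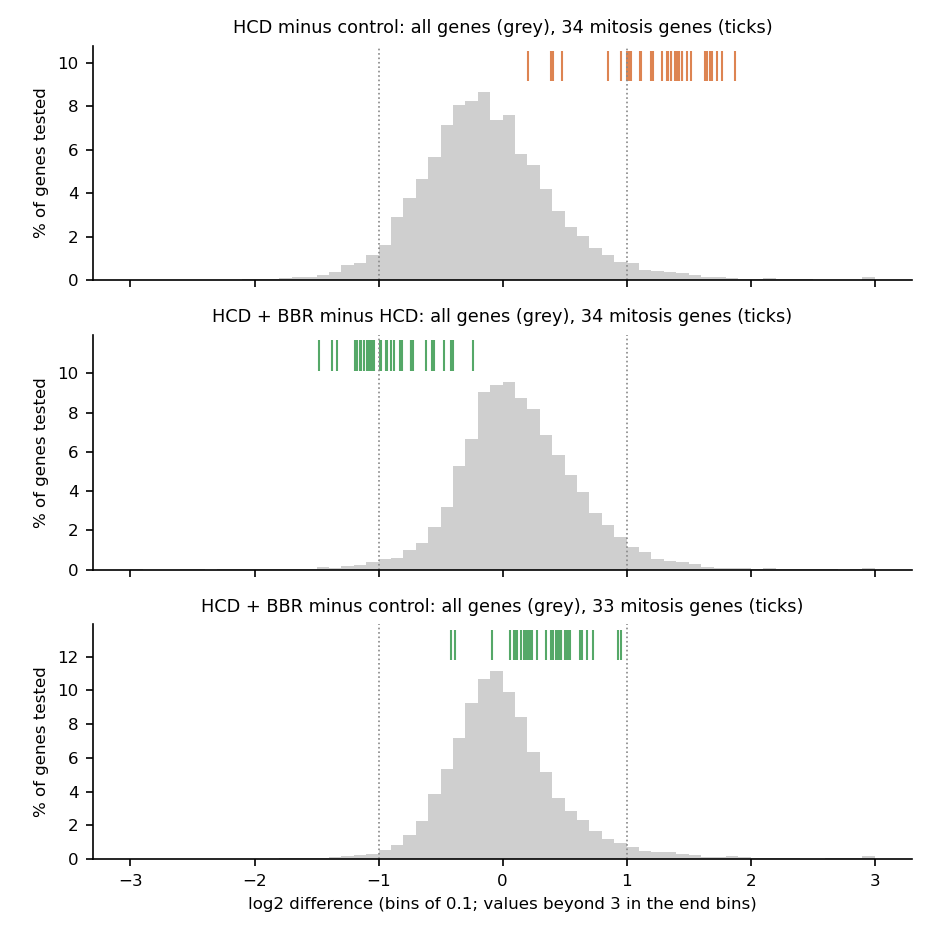
Distribution of the log2 difference over all genes compared (grey bars, percent of genes in bins of 0.1) with the measured mitosis and cell division genes as coloured ticks, for HCD minus control (top, 34 genes), BBR minus HCD (middle, 34 genes) and BBR minus control (bottom, 33 genes). Dotted lines mark 2-fold. The ticks lie on the right of the grey distribution at the top, on its left in the middle, and inside the 2-fold lines at the bottom.

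Other probes of the same genes give a second reading from the same arrays. Of the 34 genes, 24 had further probes. In 23 genes, 46 of these probes were well above background on 1 or both arrays of a comparison, and where only 1 passed the value is a bound. Between HCD and control, 40 of the 46 were above 0 and 23 at least 2-fold higher, with a median log2 difference of 1.01. Over all 8438 genes with a second brightest probe compared, that probe was at least 2-fold higher in 3.38%. Between BBR and HCD, 39 of the 46 were below 0 and 6 at least 2-fold lower, with a median of −0.51. The second brightest probe was at least 2-fold lower there in 1.39% of 8582 genes. The further probes thus mostly showed the same direction with a smaller size, by a median of 0.26 between HCD and control and 0.48 between BBR and HCD. In the comparison of BBR with the control, where 0 of the probes used passed the 2-fold line, 4 of the 46 further probes were at least 2-fold higher with BBR, in mki67 (2.13), nusap1 (1.08), ccnb1 (1.07) and ube2c (1.02), and the median was 0.38. Of 8601 genes, 3.27% were at least 2-fold higher with BBR than in the control on their second brightest probe.

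Some genes read alike on every probe. The 3 probes of cdca8 gave log2 differences of 1.77, 1.85 and 1.46 between HCD and control. The 3 probes of nuf2 gave 1.03, 1.07 and 1.19 and those of fbxo5 1.28, 1.38 and 1.27.

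Others did not. The second probe of ccna2 was at 16.9% in the control, 14.2% in HCD and 13.7% with BBR, a log2 difference of −0.25 and then −0.05, where the probe used gave 1.87 and −1.48. The dimmest probe of ccna2 gave 0.63 and −0.50. The largest differences of the set therefore rest on 1 of 3 probes. The further probe of cdc20 was at 13.4%, 12.3% and 14.5%, a log2 difference of −0.13 between HCD and control against 1.36 for the probe used.

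The 6 probes of anln ranged from −0.49 to 1.87 between HCD and control, and the 4 probes of smc2 from −0.26 to 1.42. Both ends for anln are bounds from probes at background on 1 of the arrays. Its probes well above background on every array ran from −0.14 to 1.63. The 5 probes of mki67 ranged from 0.92, a bound, to 1.65 between HCD and control. One of them gave 10.4% in the control, 24.1% in HCD and 45.6% with BBR, and so was highest with BBR, unlike the other 4. Of the 23 genes with several probes compared, every probe was above 0 between HCD and control in 18, and below 0 between BBR and HCD in 16.

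**Figure D4:**
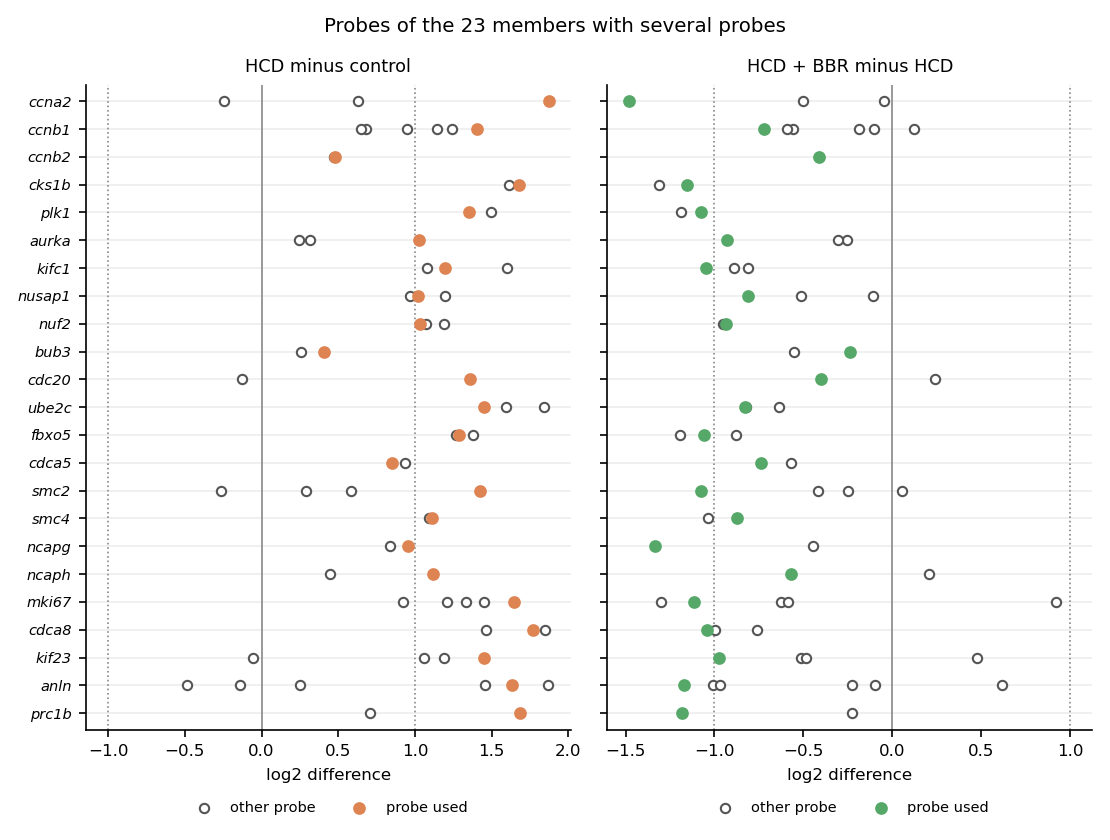
Log2 difference of each probe of the 23 genes with more than 1 probe well above background on 1 or both arrays, for HCD minus control (left) and BBR minus HCD (right). Filled circles are the probes used, open circles the others, and dotted lines mark 2-fold. Most open circles lie on the same side of 0 as the filled one, with ccna2, cdc20, smc2, kif23 and anln as the exceptions on the left.

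The genes around these in the same machinery were read from 7 further lists of cell cycle genes. Among kinetochore and centromere genes outside the set, 16 of 32 had a named probe, and 10 of the 16 were at least 2-fold higher in HCD than in the control and 0 lower (median log2 difference 1.15). Between BBR and HCD, 3 of the 16 were at least 2-fold lower and 0 higher (median −0.83). The kinetochore subunit spc25, a partner of ndc80 and nuf2, was at 46.3% in the control, 135% in HCD and 57.4% with BBR. The centromere gene cenpp was 3.04-fold higher in HCD than in the control, and nsl1, of the Mis12 complex, 2.60-fold.

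Among the other spindle and centrosome genes, 24 of 32 were measured, and 11 were at least 2-fold higher in HCD and 0 lower (median 0.94). With BBR, 6 of the 24 were at least 2-fold lower than in HCD and 0 higher (median −0.84). The spindle pole gene aspm was at 35.2% in the control, 106% in HCD and 43.4% with BBR. The hyaluronan-mediated motility receptor gene hmmr, whose product also binds spindle microtubules, was 3.05-fold higher in HCD, and prc1a, the paralogue of prc1b, also 3.05-fold.

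Other kinases, cyclins, phosphatases and transcription factors of mitotic entry moved less as a list. Of 17 measured among 18 listed, 3 were at least 2-fold higher in HCD and 0 lower (median 0.33), and 2 were at least 2-fold lower with BBR than in HCD (median −0.36). The 3 were pbk, a mitotic kinase, at 3.11-fold, mybl2b, which encodes the B-Myb factor of late cell cycle transcription, at 2.96-fold, and ccnb3 at 2.09-fold. The transcription factor gene foxm1, named here after its values were seen, acts on many genes of the set in mammalian cells. It was at 72.9% in the control, 79.4% in HCD and 46.6% with BBR. Its log2 difference was 0.12 between HCD and control, −0.77 between BBR and HCD, and −0.64 between BBR and control. The part of foxm1 in the differences of the set was not tested.

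The core subunits of the anaphase promoting complex and its regulators were measured by 20 of 25 genes. Of these, 2 were at least 2-fold higher in HCD and 0 lower, with a median of 0.17, and 0 passed the line between BBR and HCD (median −0.28). The 2 were pttg1, which encodes securin, at 2.81-fold and trip13, which remodels Mad2, at 2.74-fold. Between HCD and control, most of the complex therefore lay below ube2c and the probe used for cdc20, its partners in the set. The further probe of cdc20 gave a log2 difference of −0.13 there. Between BBR and HCD, cdc20 was at −0.40, inside the quartiles of this list (−0.44 and 0.06).

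Of the cohesin genes and the other condensin genes, 16 of 22 were measured. In HCD, 4 were at least 2-fold higher than in the control and 1 lower (median 0.20), and with BBR 4 were at least 2-fold lower than in HCD and 1 higher (median −0.24). The condensin II subunits ncapd3 and ncapg2 were 3.01-fold and 2.56-fold higher in HCD, and esco2, which acetylates cohesin during replication, 2.81-fold. The gene lower in HCD was rad21b, named here after its values were seen, which was at 12.8% in the control, 5.54% in HCD and 12.2% with BBR. The condensin I subunit ncapd2, also named after its values were seen, was at 55.2%, 42.2% and 57.7%. On the probes used, the HCD array was thus lowest in ncapd2, whereas it was highest in smc2, smc4 and ncaph. The further probe of ncaph was highest with BBR (4.19%). Further probes of smc2 were highest in the control (11.8%), with BBR (6.50%) and in HCD (13.7%).

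Genes of the earlier cell cycle went in both directions. Of 10 G1 cyclins and their kinases, 8 were measured, and only cdk2 was at least 2-fold higher in HCD (2.84-fold, with 23.6% in the control, 67.0% in HCD and 31.6% with BBR). The median of the list was 0.03 between HCD and control and −0.18 between BBR and HCD, where 1 gene was at least 2-fold lower with BBR (cdk2) and 1 higher (ccnd3, at 24.02% in the control, 17.97% in HCD and 36.6% with BBR). The cyclin E genes ccne1 and ccne2, named like ccnd3 after their values were seen, had log2 differences of 0.92 and 0.9998 between HCD and control. Of 18 inhibitors of the cell cycle, 12 were measured, with medians of 0.04 and −0.05. In this list 0 genes were at least 2-fold higher in HCD and 1 was lower, gadd45ba, a stress-induced gene, at 267% in the control, 127% in HCD and 178% with BBR. The inhibitor gene cdkn2c, named after its values were seen, was at 11.2%, 19.7% and 33.9%, the 1 gene of the list at least 2-fold higher with BBR than in the control.

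**Figure D5:**
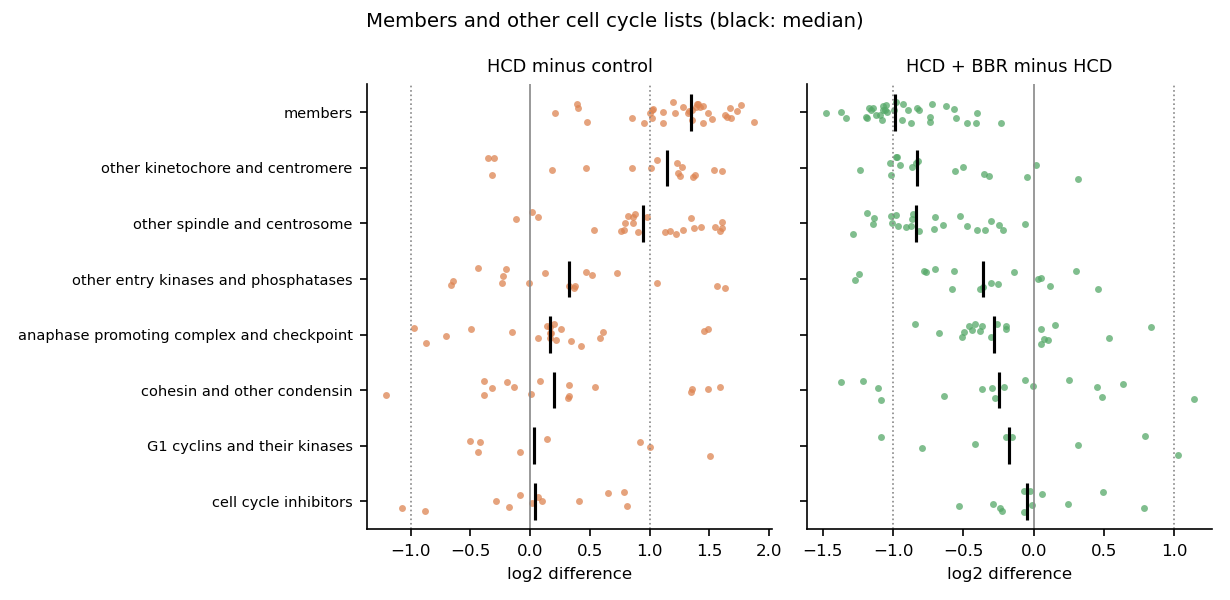
Log2 differences of the 34 measured genes of the set and of 7 further lists of cell cycle genes, for HCD minus control (left) and BBR minus HCD (right). Each point is a gene, black bars are medians, and dotted lines mark 2-fold. The medians on the left go from 1.34 for the set, 1.15 for kinetochore and centromere genes and 0.94 for spindle genes to 0.03 for G1 cyclins and 0.04 for inhibitors.

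Markers of other cells moved as well between the arrays. Of the 7 stellate cell and fibroblast markers, 6 were well above background, and their summed signal was 2299% in the control, 3084% in HCD and 1982% with BBR, the same order of HCD against the other arrays as in the set. Between HCD and control 5 of the 6 were above 0 and 2 at least 2-fold higher (col1a1a, at 348%, 699.8% and 373%, and lum, at 7.62%, 16.7% and 4.73%), while acta2 was at 931%, 823% and 658%. All 6 were lower with BBR than in HCD. Macrophage and neutrophil markers (9 genes) summed to 1292%, 1999% and 2367%, which was highest with BBR. Of the 9, 5 were highest with BBR, 3 in HCD (mpx, lyz and mmp9) and 1 in the control (csf3r). Intestinal markers (7 genes) summed to 8236%, 8764% and 8031%, with 5 of 7 highest in HCD and 6 of 7 lower with BBR than in HCD. Among them agr2 alone passed the 2-fold line between HCD and control, at 166%, 405% and 214%. Erythrocyte markers (8 genes) summed to 458%, 534% and 498%, with 5 of 8 above 0 between HCD and control and 3 below. The 1 gene past the 2-fold line was slc4a1a, the band 3 gene of red cells, at 35.6%, 103% and 71.3%, and hbaa2, a globin gene, was at 6.98%, 4.87% and 4.49%.

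The 10 hepatocyte markers summed to 12050% in the control, 11720% in HCD and 13370% with BBR, and 0 of them were 2-fold apart in any comparison. Biliary markers (6 genes) summed to between 2323% and 2984%, with the HCD array lowest. Exocrine pancreas markers (7 genes) summed to 26310%, 22120% and 23590%, and all 7 were lower in HCD than in the control. With BBR, 3 of the 7 were above HCD and 4 below, and cpa5 alone passed the 2-fold line, at 1230%, 837% and 1940%. Skeletal muscle markers (7 genes) summed to 19890%, 17710% and 18520%, with 5 of 7 lower in HCD than in the control. Lymphocyte markers (8 genes) summed to between 71.7% and 86.2%, with cd8a not well above background on any array, germ cell markers (7 genes) to between 38.5% and 45.2%, and endothelial markers (5 genes) to between 56.0% and 64.9%. The part of these cell types in the differences of the mitosis genes was not tested.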

How the data were processed

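Liver RNA labelled with Cy3 was measured on 3 single-colour arrays. The authors deposited scanner files from Agilent Feature Extraction, whose processed intensity is background-subtracted (version 11.5.1.1 in the file headers, 10.7 in the submitters' processing notes), and a table of log2 values from GeneSpring. For 100% of the 43603 probes, the deposited log2 values were the log2 processed intensity minus a constant of the array near its 75th percentile, within 0.01. They served as an alternative.

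Control spots and outlier spots were removed, which left out 2657 probes. Spots of a probe were averaged on the log2 scale, and the 75th percentile of the array was subtracted. Of 28397 accessions, 13553 matched a RefSeq gene table (assembly GRCz12tu, names only), and 13105 of 27295 genes carry a symbol. A gene was compared when 1 or both arrays read its probe well above background. If only 1 did, the other array entered at its own signal or at the lowest signal of any probe well above background, whichever was higher, which gives a bound. Genes were called at 2-fold, as in the methods of the study. The study's results also name a cut-off on a corrected P value, which was not applied here, so the calls are not the same. The error is that of the scanner's error model.

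The members and all lists were chosen with earlier results of these data known. Named by rule are all measured members, up to 3 genes of each further list with the largest HCD difference, and cd8a as a marker at background. The other single markers were named after their values were seen. The calling of genes was tested on simulated data with planted changes well beyond 2-fold, which does not bear on calls near that line. Alternatives changed the normalization, background correction, filter, probe, outliers and threshold. Computations used Python 3.11.15, pandas 2.3.3, R 4.3.3 and limma 3.58.1. Promoter and protein sequences were not used here. With so few arrays the precision is limited by their number.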

Additional observations from a re-analysis of the deposited data

How the results depend on the processing

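With 1 array per group, no replicate could be left out and the slide could not be fitted as a block. No paired analysis was possible because each group holds 1 array. The scaling moved the whole distribution. The median of all genes between HCD and control was −0.16 with the 75th percentile and −0.01 with cyclic loess, and between BBR and HCD it was 0.10 and −0.02. The share of calls that were higher in HCD than in the control was 47.5% with the 75th percentile, 60.1% with median centring, 66.0% with normexp, 69.7% with quantile normalization and 75.1% with cyclic loess. Between BBR and HCD the share that was higher with BBR was 77.4%, 58.1%, 62.4%, 48.4% and 50.1% in that order. Over the 11 alternatives other than thresholds, the median of the set stayed between 1.07 and 1.44 for HCD and control. For single genes of the set, 331, 335 and 340 alternative values in the 3 comparisons stayed within the SD between probes of a gene. A further 29, 27 and 13 moved beyond it, and 2 called values turned in sign, both between HCD and control. Called genes that fell below the 2-fold line between HCD and control included aurka (lowest 0.32), racgap1 (0.36), ncaph (0.45), smc2 (0.51), nusap1 (0.76), anln (0.76) and kif11 (0.83). For prc1b the lowest value (0.70) is a bound, from a further probe not well above background in the control, and cannot show such a fall. The deposited log2 values repeat the main ones within 0.01, and the filter and floor affect only genes not well above background on every array. Agreement under those alternatives was therefore largely fixed in advance. Counts of the set moved by over 1.5 times only with the choice of probe and the threshold. With the mean of a gene's probes, 7 genes of the set were at least 2-fold lower with BBR than in HCD, against 1.15% of all genes. With the second brightest probe, available for 23 genes, 4 were, with a median of −0.56, and 12 were at least 2-fold higher in HCD than in the control. The shares over all genes with such a probe were 1.39% and 3.38%. At a 3-fold threshold 7 genes were higher in HCD and 0 lower with BBR. At 1.5-fold, 28 were lower with BBR than in HCD and 6 were higher with BBR than in the control. Shares over all genes were not computed at these thresholds, so these counts cannot be set against them. By stage, the mean of probes gave a median of 1.05 for cytokinesis between HCD and control, and −0.62 for entry and −0.54 for chromosome structure between BBR and HCD. The second probe gave 0.81 for entry and 0.94 for the checkpoint between HCD and control, and −0.49 for entry and −0.45 for chromosome structure between BBR and HCD. For the other spindle genes the mean of probes gave −0.47 between BBR and HCD, and the second probe −0.48 there and 0.58 between HCD and control. Signs that turned were those of list medians near 0 and of single genes. The inhibitors turned between BBR and control with median centring (−0.0165), normexp (−0.0655), the mean of probes (−0.12), the second probe (−0.17) and outlier spots kept (−0.0039), between HCD and control with normexp (−0.0569) and the second probe (−0.27), and between BBR and HCD with the second probe (0.0367). The G1 genes turned between HCD and control with the second probe (−0.0812) and with outlier spots kept (−0.0818), and between BBR and control with the second probe (−0.10). The other entry kinases turned between BBR and control with the second probe (0.061). With the second probe, ccna2 (−0.25) and cdc20 (−0.13) turned between HCD and control. Below the 2-fold line, 2 genes turned between BBR and HCD with the second probe, cdc20 (0.24) and ncaph (0.21). Between BBR and control, 6 genes turned in 9 alternative values, ccna2 (−0.30) with the second probe, bub3 and ncapg with the second probe (−0.29 and 0.39) and the mean of probes, bub3, ccnb2 and nusap1 with normexp, and dlgap5 (0.22) with outlier spots kept. The causes of these turns were not tested.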
